A study of Mus musculus with 22 samples.

Results

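To describe what rapamycin does to the ribosome-bound mRNA of Tsc1-deficient Purkinje cells (PCs), 3 rapamycin-treated mutant TRAP libraries were compared with 3 untreated mutant TRAP libraries, 6 of the 22 libraries of the series. Of the 66494 loci in the TRAP table, 9664 had a mean of at least 2 on the log2(value + 1) scale over these 6 libraries and were tested. A locus was called when its unadjusted limma p was under 0.01 and its difference above 2-fold; "rose", "fell", "lower with" and "higher with" rapamycin are used of called loci only. A symbol could be given to 1635 loci, those that the supplementary files of the study pair with a reference gene that the assembled transcript matches or shares a splice junction with. Of these, 956 passed the filter and 679 did not; a locus high in only one of the groups passes more easily when it differs, so the 956 are not all named loci. Dcaf17, at 2.01, was the named locus just inside the filter, and Nim1k, at 2.00, the one just outside.

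All animals were C57BL/6 and carried L7Cre and a Rosa26fsTRAP allele, which places a GFP-tagged ribosomal protein on the ribosomes of Cre-expressing cells. The mutants (genotype label CC) were Tsc1 fl/fl and the controls (WW) Tsc1 +/+; treated animals differ from untreated ones in the label "Rapamycin treated" alone, and neither dose, schedule nor age is given. Cre was driven by the L7 (Pcp2) promoter, so that Tsc1 was deleted and ribosomes were tagged in PCs, and RNA came from a GFP pulldown of cerebellum (translating ribosome affinity purification, TRAP). The study's methods describe TRAP RNA taken from each animal, while the labels name no animal for a library, so that the p-values measure the spread between libraries that the methods, but not the labels, tie to separate animals. Tsc1 itself is not analysed here, and the genotype labels were therefore not checked on it.

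The TSC1/TSC2 complex restrains RHEB, the small GTPase that switches on the kinase complex mTORC1. Active mTORC1 promotes translation, ribosome production and lipid synthesis and restrains autophagy. Rapamycin binds the small immunophilin FKBP12, the product of Fkbp1a, and the pair then binds and inhibits mTORC1. PCs are the GABAergic output neurons of the cerebellar cortex and hold very high levels of calcium-signalling proteins, among them the IP3 receptor Itpr1.

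The mutant libraries held 2.47 to 3.41 M fragments. They did not all resemble each other. In untreated mutant 3 the 10 highest loci took 40.5% of the total, against 66.5% to 70.8% in the other 5, its deposited total was 0.861 M against 4.47 to 5.84 M, and 1 fragment was worth 0.303 against 1.35 to 1.96. Treated mutant 2 listed 870 of the tested loci at 0, against 11 to 262 in the others, and correlated with them at 0.69 to 0.73, where the others correlated with each other at 0.80 to 0.88. On the log2 scale, 1 fragment stood at 1.23 to 1.57 in 5 libraries and at 0.38 in untreated mutant 3, so that values under about 2 rest on 1 or a few fragments. The PC markers were abundant: the log2 of the summed level of 11 of them was 13.28 to 13.45 in treated and 13.18 to 13.35 in untreated mutants. In bulk RNA, fewer cells of a type and less RNA per cell cannot be told apart.

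With rapamycin, 169 of 9664 loci were called (1.75%). Of these, 123 were lower (1.27% of loci tested) and 46 higher (0.476%). No locus reached a limma adjusted p under 0.05 (0%), while 803 (8.31%) had an unadjusted p under 0.05; the smallest adjusted p was 0.0819. In 906 loci (9.38%) all 3 treated libraries lay below all 3 untreated ones, and in 716 (7.41%) above. The median difference over all loci was -0.04. This near-zero median rests on the authors' size factors: with equal library totals it was -0.81, and with totals that leave out the 10 highest loci -0.49, and 0.787% and 4.56% of the calls were then higher, against 27.2%. Without untreated mutant 3, 109 loci were called and 60.6% of them were higher. Increases are therefore given below with their value under equal totals, to be read against that -0.81.

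Among the 956 named loci, 58 were called, 50 lower and 8 higher. In 231 (24.2%) all treated libraries lay below all untreated ones, and in 78 (8.16%) above. These shares cannot be read as a property of named genes. Of the 956, 897 carry a name because the study selected them on contrasts that use the same untreated mutant libraries. They hold all 58 calls and 230 of the 231, whereas the 59 loci named from other files hold 0 calls, 1 locus below and 10 above, with a median of 0.09. In 48 of the 50 lower calls the untreated mutants lay above all untreated controls, and in all 8 higher calls below them, as such a selection favours. Without untreated mutant 3, 24 named loci were called, and without it and treated mutant 2, 33; 21 of the 58 were still called in the latter case, and all 58 kept their sign.

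The largest named decrease was AC166344.3, a predicted protein-coding gene (GRCm38 chr14:43275036-43306011). It stood at 0, 2.68 and 1.51 in treated mutants 1 to 3 and at 7.13, 6.54 and 5.95 in untreated mutants 1 to 3 on the log2 scale. Bcl2l11 (chr2:128126038-128162547), which encodes the pro-apoptotic BH3-only protein BIM, followed with 2.21, 0 and 3.59 against 7.07, 6.31 and 6.47. In both loci the groups lay far apart, and the fitted differences were -5.15 ± 0.71 (SE) and -4.68 ± 0.87, with limma adjusted p of 0.357 and 0.441. Both were also called without untreated mutant 3, and without it and treated mutant 2 together.

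Gm2115, a gene of unassigned function annotated as protein-coding, stood at 0.00298, 0.00233 and 0.00311 in treated mutants, far below the level of 1 fragment, and at 4.62, 4.28 and 3.68 in untreated ones, and gave the smallest adjusted p, 0.0819. A value at or near 0 in such a table can be a failed estimate, since Gad2, which PCs express, was at 0 in untreated mutant 2 and at 5.10 and 5.62 in the other untreated mutants. Tpd52l1, of the tumor protein D52 family, had 0, 0 and 2.23 against 4.06, 5.48 and 5.73. Of the 50 named decreases, 13 included a 0 in a treated library, 11 of them in treated mutant 2.

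The following 3 decreases had no 0 in a treated library. Parvb, which encodes the focal adhesion protein beta-parvin (chr15:84232043-84315688), stood at 2.68, 2.95 and 2.71 in treated and 5.95, 5.43 and 6.04 in untreated mutants, a difference of -3.02 ± 0.33 (SE), or 8.14-fold on the log2(value + 1) scale (adjusted p = 0.132). Rtel1, a helicase of telomeres and DNA repair (chr2:181319739-181356616), went from 7.58, 7.69 and 7.50 in untreated to 3.77, 4.73 and 5.17 in treated mutants, 8.16-fold lower (adjusted p = 0.357). Lhpp, a phosphohistidine phosphatase, had 5.03, 3.98 and 5.91 against 7.79, 8.34 and 7.50. Each of these 3 kept its call without treated mutant 2 and untreated mutant 3.

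The remaining large decreases concerned genes of the actin cytoskeleton and adhesion. Rflnb, which encodes the filamin partner refilin B, had 0, 0 and 3.07 in treated and 4.62, 3.71 and 4.79 in untreated mutants (-3.35). Net1, an exchange factor for RhoA, had 2.68, 0 and 0 against 3.67, 4.46 and 4.09 (-3.18). Tns2, a tensin of focal adhesions, had 3.04, 0 and 1.51 against 4.73, 4.46 and 4.49 (-3.05). The groups did not overlap, but the treated libraries were scattered, and none of the 3 was called without untreated mutant 3.

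Only 8 named loci rose. With equal totals 0 of the 8 were still called, against 25 of the 50 named decreases. Amot (chrX:145446425-145505181), which encodes the Hippo pathway scaffold angiomotin, stood at 4.11, 4.58 and 4.28 in treated and at 1.57, 1.33 and 2.39 in untreated mutants. The first 2 untreated values are each 1 fragment, and the groups were well apart. The difference was 2.56 ± 0.39 (SE), 5.91-fold (limma adjusted p = 0.393), and 1.80 with equal totals. Amot was among the 2 named increases still called without treated mutant 2 and untreated mutant 3.

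Of the other protein-coding increases given here, Itih3, Slc31a2 and Rad50 were low in the untreated libraries. Itih3, a hyaluronan-binding inter-alpha-trypsin inhibitor chain, had 3.57, 3.71 and 3.80 in treated and 2.30, 1.33 and 2.01 in untreated mutants (1.81 ± 0.36; 1.10 with equal totals). Slc31a2, a copper transporter of internal membranes, had 2.68, 2.95 and 3.07 against 1.57, 1.33 and 0.93 (1.63; 1.06 with equal totals). Rad50, of the MRN DNA double-strand break complex, differed by 1.29 (0.60 with equal totals). Tmtc1, an O-mannosyltransferase of the endoplasmic reticulum, had 4.99, 5.12 and 5.50 in treated and 4.06, 4.01 and 3.84 in untreated mutants (1.23; 0.47 with equal totals). The next largest named differences with separate groups were AA474408 (2.15, adjusted p = 0.625) and the ephrin receptor Epha4 (1.86, adjusted p = 0.598), which were not called and were at 0 in untreated mutant 3 and untreated mutant 1, respectively.

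**Figure D1:**
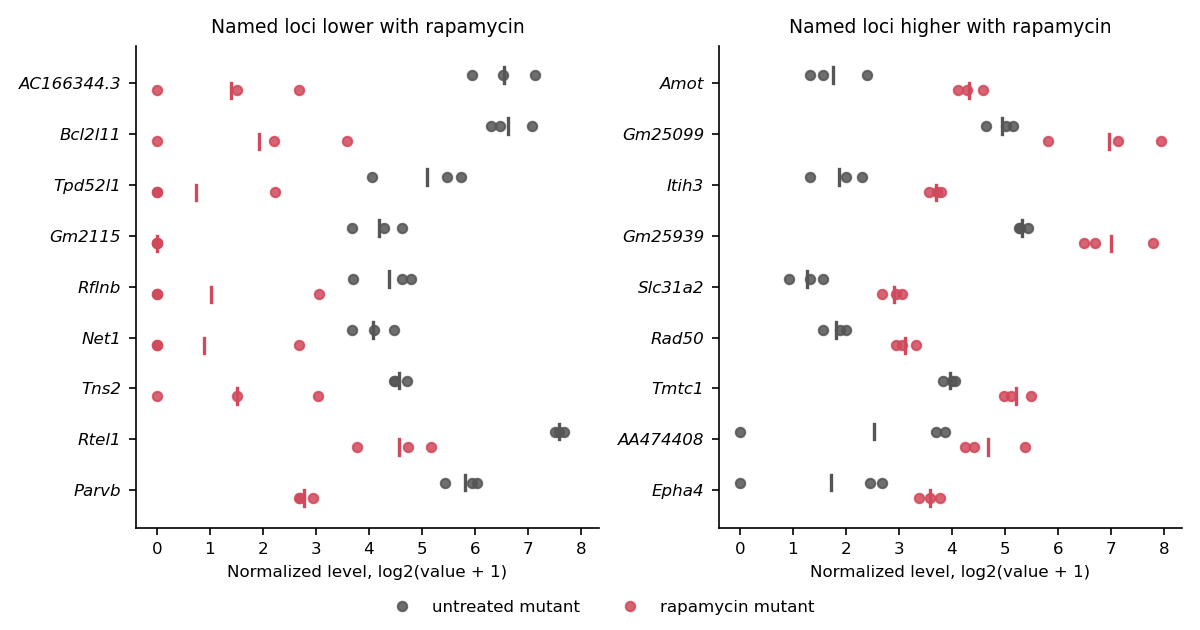
Normalized level, log2(value + 1), of the named loci with the largest decreases (left) and the largest increases (right) in each of the 3 untreated (grey) and 3 rapamycin-treated (red) mutant libraries; short bars are group means. The groups do not overlap in any of these loci, the treated values of several decreases lie at 0, and AA474408 and Epha4, at the bottom right, were not called.

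Genes of mTOR and energy signalling had a median difference of -0.63 over the 13 of 15 members tested, against -0.04 over all loci. The members of this and every other list are named loci. Over the 956 named loci the median was -0.26, and 24.2% lay below and 8.16% above. The members given below were not called. In 5 members all treated libraries lay below all untreated ones, against 9.38% of all loci, all of them named from the selected lists. Fkbp1a, which encodes the protein that carries rapamycin to mTORC1, stood at 7.87, 7.91 and 8.08 in treated and 8.89, 8.81 and 8.92 in untreated mutants, a difference of -0.92 ± 0.29 (SE) that was not called (adjusted p = 0.598). Prkab2, a regulatory subunit of the energy sensor AMPK, had 4.39, 4.41 and 3.98 against 4.93, 6.25 and 6.10 (adjusted p = 0.589, not called). Ddit4, which encodes the mTORC1 inhibitor REDD1, overlapped between groups, with 3.95, 1.89 and 3.80 against 3.88, 4.81 and 4.97. Pdpk1, the kinase PDK1 upstream of AKT, differed by -0.25.

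Messages for the translation machinery are classical mTORC1 targets because they carry a pyrimidine tract at the 5' end that responds to LARP1. The 10 members of the ribosomal protein and translation factor list were all tested, none was called, and their median was -0.30. Rplp0 differed by -0.69 ± 0.67, Rps16 by -0.82 ± 0.42 and Rpl37 by -0.58 ± 0.44, and in each the groups overlapped. Eef1a2, the neuronal elongation factor, was at 9.58, 9.59 and 9.44 against 9.72, 9.61 and 9.64, and Pabpc1, the poly(A)-binding protein, differed by 0.18 ± 0.42. Larp1 itself had 6.27, 6.62 and 6.65 against 6.71, 6.98 and 6.82. The 9 tested ribosome biogenesis genes had a median of 0.12 with no call, Npm1, the nucleolar chaperone, differing by -0.44. The standard errors of the 10 translation genes, 0.29 to 0.73, set the size of change that could be seen in them.

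The PC markers did not move together. None of the 25 was called, their median was 0.12, and it was -0.65 with equal totals. Calb1, the calcium buffer calbindin, differed by -0.26 ± 0.31, Pcp2 by -0.24 ± 0.30 and Gad1, the GABA-synthesizing enzyme, by 0.38 ± 0.34. Shank2, the postsynaptic scaffold, was at 8.50, 8.62 and 9.16 against 9.07, 8.92 and 8.27.

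Within the PC markers, however, 6 loci had treated libraries that all lay above the untreated ones and 2, Lhx1 and Gng13, had them all below. These compare with 7.41% and 9.38% of all loci and 8.16% and 24.2% of named loci. The calcium genes among them, picked out after their values were seen, are given here. Itpr1, the IP3 receptor that releases calcium from the endoplasmic reticulum (chr6:108213096-108551109), stood at 11.39, 11.86 and 11.53 in treated and 10.53, 10.55 and 10.48 in untreated mutants. The means were 11.59 ± 0.24 (SD, n = 3) and 10.52 ± 0.04 (SD, n = 3). The difference was 1.07 ± 0.30 (SE), 2.10-fold, and narrowly missed the call (adjusted p = 0.569). Itpr1 is among the loci named from contrasts that use the untreated mutants. Its untreated mutants lay below all untreated controls, at 11.70, 11.63 and 11.32, as such a selection favours.

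Cacna1g, the T-type calcium channel Cav3.1, had 7.98, 7.74 and 8.09 against 7.13, 7.14 and 6.89 (0.88). Atp2a3, the calcium pump SERCA3, had 6.70, 7.40 and 6.60 against 5.95, 5.86 and 5.66 (1.08). Cacna2d2, a calcium channel auxiliary subunit, differed by 1.01, and Atp2b2, the plasma membrane calcium pump PMCA2, by 0.78. With equal totals, where the median of all loci was -0.81, Itpr1 (0.29), Atp2a3 (0.30), Cacna2d2 (0.24) and Cacna1g (0.10) stayed above 0, and Atp2b2 (-0.00) did not.

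The wider list of ion channel and calcium genes was split: 25 of 31 were tested, with a median of -0.22. Of the 25, 7 lay above and 6 below, against 7.41% and 9.38% of all loci and 8.16% and 24.2% of named loci. Calls numbered 2, against 1.75% of all loci and 6.07% of named loci. Both were decreases, as were 50 of the 58 named calls. Kcnd3, the A-type potassium channel Kv4.3, stood at 4.81, 4.21 and 4.28 in treated and 5.95, 5.90 and 5.49 in untreated mutants (-1.34 ± 0.34, adjusted p = 0.522), and Ncs1, a neuronal calcium sensor, at 5.14, 5.07 and 5.24 against 6.20, 6.22 and 6.49 (-1.15 ± 0.30, adjusted p = 0.524). Neither was called without untreated mutant 3.

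Of the 28 synaptic genes tested, 5 lay below and 3 above, against 9.38% and 7.41% of all loci and 24.2% and 8.16% of named loci. None was called, and the median was -0.05. The 3 above were Gabbr1 and Gabbr2, the subunits of the GABA-B receptor, and Dnm1, the dynamin of synaptic vesicle uptake. Gabbr1 had 8.63, 8.36 and 8.96 in treated and 7.73, 7.81 and 7.81 in untreated mutants (0.87, adjusted p = 0.598; 0.09 with equal totals). Gabbr2 had 6.69, 7.04 and 7.36 against 6.48, 6.39 and 6.36 (0.62; -0.16 with equal totals). Cplx1, a complexin that clamps vesicle fusion, lay below, with 8.44, 8.39 and 8.56 against 9.53, 9.53 and 9.11 (-0.93, adjusted p = 0.598).

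**Figure D2:**
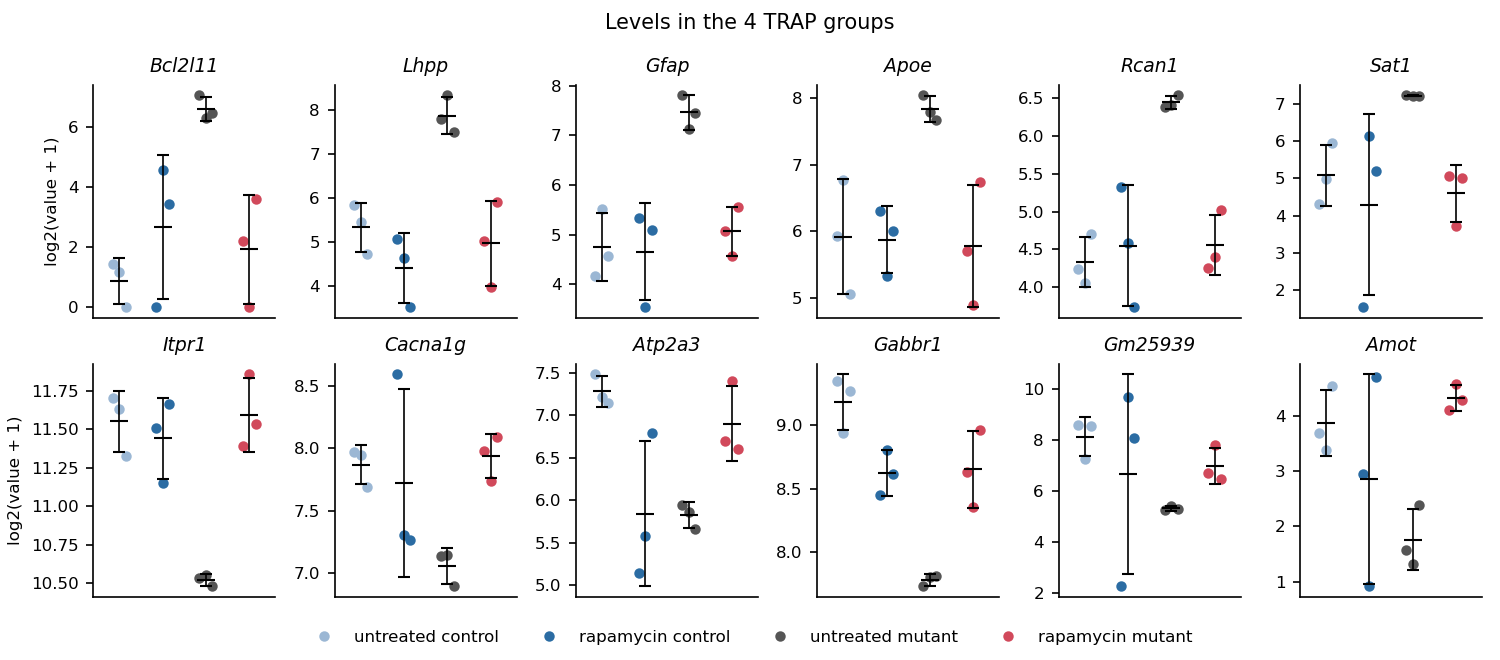
Normalized level, log2(value + 1), of 12 genes in the 12 TRAP libraries, with the mean and SD of 3 libraries per group in black; each panel has its own axis, which does not start at 0. In the upper row the untreated mutants have the highest mean and in the lower row the lowest, with some treated controls below them for Atp2a3, Gm25939 and Amot; the treated mutants lie apart from the untreated mutants in every panel.

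Immediate early and stress genes had the lowest median of the larger lists, -0.92 over the 15 of 18 tested. In 7 of the 15 the treated libraries all lay below, in 0 above, against 9.38% and 7.41% of all loci and 24.2% and 8.16% of named loci. Of the 15, 2 were called, both lower (1.27% of all loci were called lower, and 6.07% of named loci were called). Sat1 (chrX:155213132-155216449), the enzyme that acetylates polyamines for breakdown, stood at 5.07, 3.71 and 5.02 in treated and 7.23, 7.20 and 7.22 in untreated mutants, 6.13-fold lower (-2.62 ± 0.44, adjusted p = 0.393). Rcan1 (chr16:92391953-92470867), a calcineurin inhibitor, stood at 4.25, 4.41 and 5.02 against 6.38, 6.42 and 6.54, 3.70-fold lower (-1.89 ± 0.34, adjusted p = 0.433). Srxn1, a sulfiredoxin of the oxidative stress response, had 6.25, 5.76 and 5.90 against 6.76, 7.32 and 6.99 and was not called (adjusted p = 0.598).

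Of the 8 cell death genes only 3 were tested. Bcl2l11 fell, as described above, and Parp1, which encodes a DNA damage sensor, had 6.30, 6.87 and 5.99 against 5.26, 5.62 and 5.65 and was not called (0.88, adjusted p = 0.598; 0.10 with equal totals).

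Among 13 tested chaperones and folding enzymes 1 was called, against 1.75% of all loci and 6.07% of named loci. This was Hspa14, a ribosome-associated Hsp70 (chr2:3488850-3512814). It stood at 5.64, 5.22 and 5.44 in treated and 7.47, 7.17 and 7.25 in untreated mutants, 3.64-fold lower, and was still called without treated mutant 2 and untreated mutant 3. Hspa5, the endoplasmic reticulum chaperone BiP, had 6.57, 6.49 and 6.85 against 6.20, 5.66 and 5.98 (0.69, not called; -0.09 with equal totals). In 4 of 8 proteasome genes the treated libraries all lay below (9.38% of all loci, 24.2% of named loci). The most separate was Psmd8, with 6.51, 6.21 and 6.60 against 7.49, 7.41 and 7.22 (adjusted p = 0.598, not called).

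Of the 34 mitochondrial genes tested, 27 were under 0, against 53.0% of all loci. The share under 0 was not taken over named loci, whose median also lay under 0. Of the 34, 8 lay below and 1 above, against 9.38% and 7.41% of all loci and 24.2% and 8.16% of named loci. The share below was thus close to that of named loci. Their median was -0.39, against -0.26 over named loci. Calls numbered 2 of the 34, both decreases, against 1.75% of all loci and 6.07% of named loci called. Mrps22, a mitochondrial ribosomal protein, had 4.38, 3.86 and 4.14 against 5.59, 5.38 and 5.15, and Acad8, an enzyme of valine breakdown, had 3.33, 1.23 and 2.71 against 5.10, 4.56 and 4.22. Neither was called without untreated mutant 3. The RNA exosome and its cofactors stayed around 0 (median -0.00 over 22 of 24, no call), with Exosc10, the nuclear exonuclease, at 4.90, 4.41 and 5.02 against 3.43, 4.13 and 4.12 (0.88, adjusted p = 0.598). Lipid and sterol synthesis genes had a median of 0.17 over 8 members with no call. The 4 circadian genes had a median of 0.43 with no call; it was -0.34 with equal totals.

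**Figure D3:**
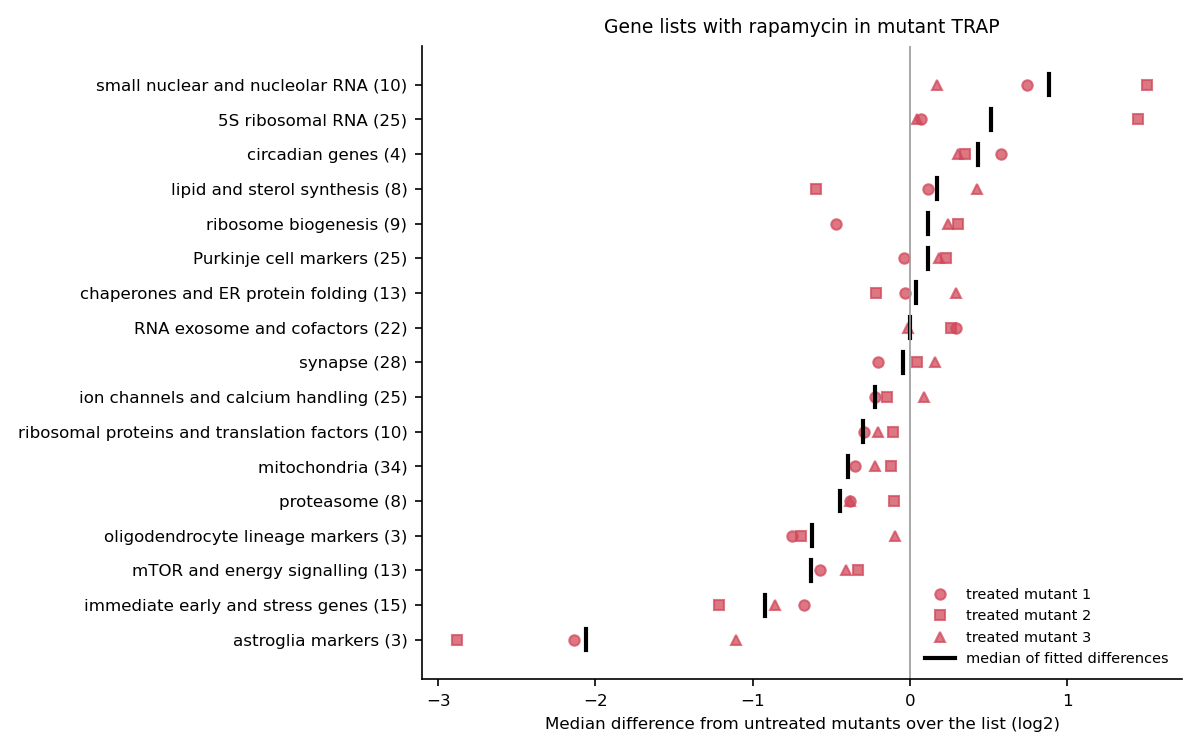
For the gene lists with at least 3 tested members, cell death genes left out (number in brackets), the median over the list of each treated mutant library's difference from the mean of the untreated mutants (symbols, log2) and the median of the fitted differences (black bar). Stress and astroglial genes lie to the left of 0 in all 3 treated libraries, and for the small RNA lists treated mutant 2 lies far to the right of the others.

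Several markers of other cerebellar cells moved with the comparison. Gfap, the intermediate filament of astrocytes (chr11:102887336-102900912), stood at 5.07, 4.58 and 5.56 in treated and 7.81, 7.12 and 7.45 in untreated mutants, 5.25-fold lower (-2.39 ± 0.39, adjusted p = 0.393). Apoe, the apolipoprotein of astrocytes and microglia (chr7:19696109-19699188), stood at 5.70, 4.89 and 6.73 against 8.04, 7.79 and 7.68, 4.17-fold lower (-2.06 ± 0.50, adjusted p = 0.509). Gfap was still called without treated mutant 2 and untreated mutant 3, and Apoe was not.

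Over the 8 astroglial markers, 3 passed the filter, the third being Aldoc, an aldolase that PCs also express, and all 3 lay below. Among those that did not pass, Slc6a13 lay below and Sox2, Id3 and Gpc5 overlapped between the groups. Tnc went the other way, with 2.21, 1.89 and 2.23 in treated and 1.57, 0 and 1.64 in untreated mutants. The log2 of the summed level of all 8 was 10.66 to 11.09 in treated and 11.41 to 11.73 in untreated mutants. Aldoc made up most of this sum, with 10.56, 11.05 and 10.69 in treated and 11.39, 11.20 and 11.55 in untreated mutants. Of 8 microglial markers 1 passed, and the summed level was 1.49 to 3.98 in treated against 4.99 to 5.90 in untreated mutants; Tyrobp, the adaptor of microglial receptors, was listed at 0 in all treated and at 2.78, 2.81 and 2.47 in untreated mutants. For the 5 oligodendrocyte markers the sums were 4.66 to 5.56 against 5.45 to 5.75, with the myelin gene Opalin at 0 in all treated mutants. For the 7 vascular markers they were 1.51 to 2.21 against 2.30 to 3.33, with the smooth muscle gene Des at 0 in all 6. In treated mutants these vascular sums rest on 1 or a few fragments, and Cd34 overlapped between the groups. Apart from the oligodendrocyte sums, which overlapped, these sums were lower in treated mutants, the astroglial one mostly Aldoc and the vascular one at low levels. Bcl2l11, Sat1 and Rcan1 fell in the same comparison, and the part of the sums in those results was not tested. The PC marker sum, by contrast, overlapped between the groups. Most of the glial and immune markers were themselves named because the study selected them on the untreated mutants.

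Small nuclear RNAs form the spliceosome in the nucleus and are not translated. Every tested named locus of this class had a positive difference; the class was formed after its values were seen. Of 12 named loci annotated as small nuclear RNA, 9 passed the filter. In 6 the treated libraries all lay above the untreated ones, against 7.41% of all loci and 8.16% of named loci. Calls numbered 2 of the 9, both higher, against 1.75% of all loci and 6.07% of named loci called. Most of the 9 were named from the study's list of differentially bound genes. Among the 154 tested loci named from that list, 16.9% lay above and 22.7% were called. The median difference of the 9 was 1.03. It was 0.25 with equal totals, where 8 of 9 stayed above 0. The reference sequences (GENCODE M21, GRCm38) of 4 loci are shown because they tell which RNA each is. Gm25939 (chr1:72255008-72255198, + strand) and Gm25360 (chr1:72226240-72226430, + strand) are U2 copies that differ at 3 of 191 bases, Gm24265 (chr5:115489459-115489599, + strand) is a U4 copy, and Rnu11 (chr4:132270080-132270213, - strand) encodes U11. Capitals mark ATTTTTG or ATTTTTTG, the letters of the Sm protein site, searched on the transcript strand. They occur once in each of the 4 and in 4.70% of the 1383 annotated small nuclear RNA transcripts.
Gm25939: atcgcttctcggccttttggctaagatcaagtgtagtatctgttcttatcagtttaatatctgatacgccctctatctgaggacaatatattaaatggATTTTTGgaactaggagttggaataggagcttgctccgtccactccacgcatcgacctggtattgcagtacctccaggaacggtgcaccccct
Gm25360: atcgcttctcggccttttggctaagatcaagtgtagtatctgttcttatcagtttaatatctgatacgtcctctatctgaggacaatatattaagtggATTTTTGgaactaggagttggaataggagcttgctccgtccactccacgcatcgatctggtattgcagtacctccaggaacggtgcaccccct
Gm24265: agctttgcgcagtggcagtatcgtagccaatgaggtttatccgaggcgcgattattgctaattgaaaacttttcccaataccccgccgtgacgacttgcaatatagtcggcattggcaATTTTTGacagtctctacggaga
Rnu11: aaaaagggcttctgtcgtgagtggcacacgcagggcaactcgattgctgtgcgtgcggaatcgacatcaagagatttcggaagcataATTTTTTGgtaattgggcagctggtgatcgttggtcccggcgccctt

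Gm25099 stood at 7.13, 7.94 and 5.82 in treated and 5.02, 4.65 and 5.15 in untreated mutants, 4.07-fold higher (2.02 ± 0.57, adjusted p = 0.568). The U2 copy Gm25939 stood at 6.70, 7.80 and 6.49 against 5.26, 5.43 and 5.29, 3.18-fold higher (1.67 ± 0.42, adjusted p = 0.522). Both sets of groups were apart, and with equal totals the differences were 1.25 and 0.89. The U4 copy Gm24265 had 8.13, 9.42 and 7.18 against 6.96, 6.39 and 6.08 (1.76, adjusted p = 0.598), the second U2 copy Gm25360 5.29, 4.58 and 4.53 against 3.15, 3.09 and 4.49 (1.22, adjusted p = 0.598), and Rnu11 7.14 ± 0.74 (SD, n = 3) against 6.12 ± 0.58 (1.03, adjusted p = 0.625). These 3 were not called.

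Treated mutant 2 was the highest treated library in 7 of the 9 loci, and without it and untreated mutant 3 none was called, although all 9 differences stayed above 0. In 8 of the 9 the untreated mutants lay below all untreated controls, the contrast on which such loci were named. The U2 copies Gm25939 and Gm25360 are near-identical, so which of them a fragment came from is uncertain. Copies of the other loci were not counted, and the same uncertainty may hold for them. Gm25939 lies in an intron of D230017M19Rik on the same strand and Rnu11 overlaps an exon of Gm28872 on the opposite strand, while the other 7 overlap no other annotated gene. The 25 tested 5S ribosomal RNA loci had a median of 0.52, with 1.45 in treated mutant 2 against 0.07 and 0.04 in treated mutants 1 and 3, and 0.09 without the 2 libraries that stood apart.

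**Figure D4:**
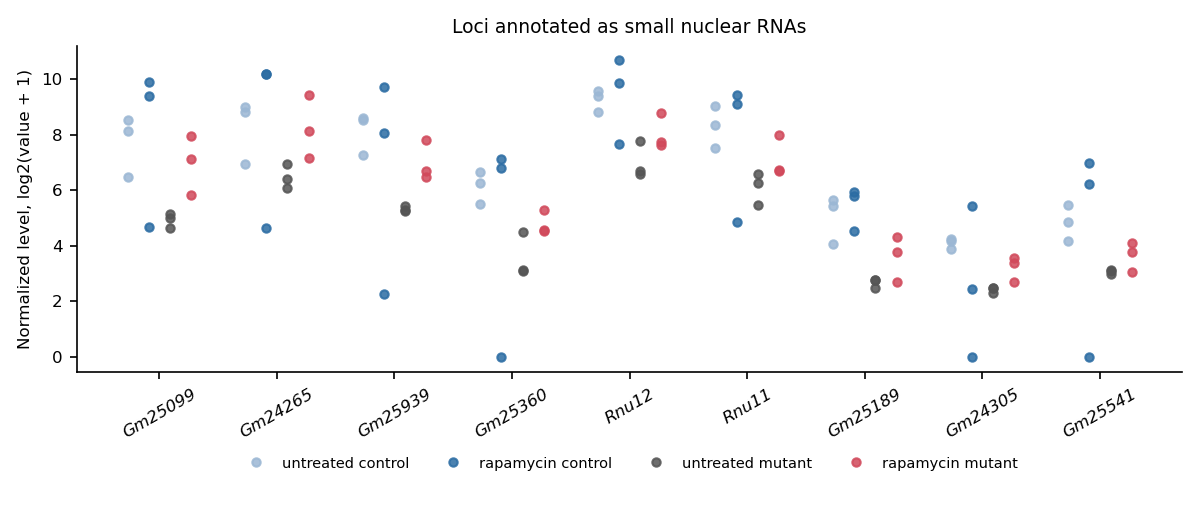
Normalized level, log2(value + 1), of the 9 tested loci annotated as small nuclear RNA in the 12 TRAP libraries, 3 per group. Treated mutants (red) lie above untreated mutants (grey) without overlap in 6 loci, and treated control 1 is the lowest treated control in each locus, at 0 in 3.

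To ask whether the same loci moved in animals with intact Tsc1, rapamycin was compared with no rapamycin in the controls. There 91 of 8682 loci were called (1.05%), 460 (5.3%) had an unadjusted p under 0.05 and 0 (0%) a limma adjusted p under 0.05, with a median of -0.31. The treated control libraries listed 3284, 1960 and 1553 of the 9664 loci at 0, more than any mutant library, so that this arm was the less precise. Of the 50 named decreases in mutants, 39 were tested in controls, 26 had a negative difference and 0 were called; of the 8 increases, 7 were tested, 5 had a negative difference and 0 were called. Gfap differed by -0.10 in controls, Rcan1 by 0.22, Sat1 by -0.78, and Hspa14 by -1.70.

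The interaction of genotype and rapamycin tests that difference itself. It was called in 175 of 9174 loci (1.91%); 552 (6.02%) had an unadjusted p under 0.05 and 12 (0.131%) a limma adjusted p under 0.05. In all 12 every treated control lay under 1 on the log2 scale, and in 9 all were listed at 0. Of the 58 named calls, 51 could be tested, and 6 were also called for the interaction, which contains the mutant difference, among them AC166344.3 (-5.81), Bcl2l11 (-6.49), Kcnd3 (-2.12), Amot (3.58) and Rad50 (4.89). For Gfap the interaction was -2.30 ± 0.82 (adjusted p = 0.661) and for Rcan1 -2.10 ± 0.68 (adjusted p = 0.533). For Hspa14 it was -0.17 ± 1.09, and for Sat1 -1.83 ± 1.41, with errors too wide to tell whether the genotypes differed.

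**Figure D5:**
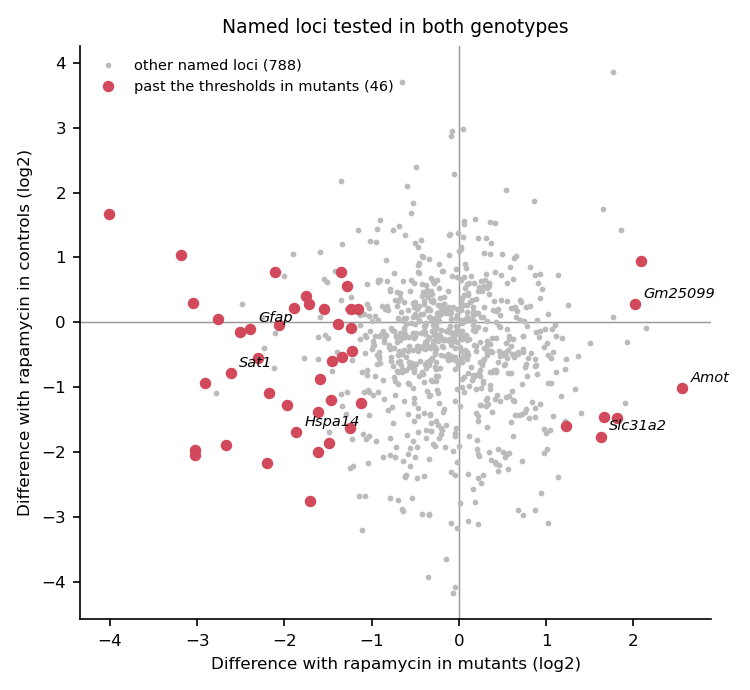
Difference with rapamycin (log2) in mutants, horizontal, and in controls, vertical, for named loci tested in both genotypes; red points were called in mutants. The called loci lie left and right by their selection, and vertically they spread on both sides of 0, most of them below; the genotypes share no libraries.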

How the data were processed

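The labels give the SmartSeq v4 kit for all libraries, whereas the methods name it for sorted cells and no kit for TRAP. Per the labels and methods, paired-end reads were trimmed with Trimmomatic 0.39, mapped with STAR 2.7.0f to GRCm38 and quantified with Cufflinks 2.2.1 on a transcriptome assembled from sorted PCs. The deposited values are a signal that the authors obtained by dividing estimated fragments by 1 size factor per library. They are not whole reads (84.5% to 92.7% of the mutant values were whole multiples of 1 fragment, within 0.02) and no count model was the main test. Values under 0.001 were set to 0. After log2(value + 1) (pseudocount 1) and a filter at a mean of 2, limma 3.58.1 (lmFit, eBayes; R 4.3.3) was fitted to the 6 mutant libraries over all 9664 loci, with Benjamini-Hochberg adjustment, and the same was done for controls and the interaction over 12 libraries. The fit was tested on simulated data. Depth (2.47 to 6.38 M fragments) was estimated by taking the most frequent value of each library, above a low cutoff, as 1 fragment.

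Genes named are the 10 largest called decreases and increases with separate groups (filled up with uncalled ones above 2-fold), fixed mTOR, translation and PC genes, and up to 4 examples per list; genes named outside this rule, the calcium genes and the small nuclear RNA class were chosen after their values were seen. Some genes that the rule selects, and 1 sequence, are not reported here. Members and lists were chosen with earlier results of these data known. Columns of the authors' own comparisons in the supplementary files were not used. The sorted PC table was not used here.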

Additional observations from a re-analysis of the deposited data

Results flagged for a closer look

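There were 4 named loci with an interaction of genotype and rapamycin with a limma adjusted p under 0.05, that is, their difference with rapamycin was not the same in mutants and controls. The fitted interactions were 4.89 for Rad50 (adjusted p = 0.0312), 4.11 for Pitrm1 (0.034), 4.05 for Khdc3 (0.0342) and 3.52 for Sec22a (0.0382). In all 4 the treated controls were listed at 0 in every library, so the fitted values depend on the pseudocount and are no fold changes. Rad50 stood at 3.33, 2.95 and 3.07 in treated and 1.57, 2.00 and 1.90 in untreated mutants, and at 4.36, 3.38 and 3.04 in untreated controls. Pitrm1, a mitochondrial protease, stood at 4.99, 5.28 and 4.93 in treated and 5.22, 5.22 and 4.95 in untreated mutants, and at 4.53, 4.26 and 3.73 in untreated controls. Khdc3, an oocyte complex gene, and Sec22a, of vesicle transport, likewise differed between the control groups and overlapped between the mutant groups. Of the 9664 loci, 3284, 1960 and 1553 were at 0 in the treated controls; the part of these zeros in the interactions was not tested.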

How the results depend on the processing

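With equal library totals, 0.787% of calls were higher, the median over all loci was -0.81, 9 loci had an adjusted p under 0.05, 2 named loci lay above in all treated libraries and the interaction was called in 31 loci; with totals without the 10 highest loci these were 4.56%, -0.49, 20, 7 and 101, with 263 calls. Loci at an adjusted p under 0.05 numbered 16 with a pseudocount of 10, 3 with 0.1, 13 with an intensity trend, 6 with a filter at a mean of 5, 1 in a fit of all 4 TRAP groups and 14 with voom weights, against 0. Interaction calls were 95 with the pseudocount of 10 and 101 with the trend. No filter gave 450 calls (108 named), a median of -0.13 and 389 interaction calls; the filter at 5 gave 95 calls (35.8% higher), a median of 0.025, 143 named loci below, 42 above and 20 interaction calls. The fit of all 4 groups gave 59 calls (16.9% higher; 28 named). Added after seeing the data, voom weights gave 301 calls (50.2% higher; 93 named), and leaving out treated mutant 2 and untreated mutant 3 gave 42.5% higher, a median of 0.0076, 33 named calls, 357 named loci below, 157 above and 110 interaction calls.

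Leaving out 1 library gave 72 (without untreated mutant 2) to 221 calls, 19.3% to 60.6% higher (lowest without treated mutant 1, highest without untreated mutant 3), 24 (without untreated mutant 3) to 62 named calls, 259 to 320 named loci below, 99 to 141 above, a median of -0.065 (without untreated mutant 1) to 0.011 (without treated mutant 2), 0 loci at an adjusted p under 0.05 throughout, and 121 to 529 interaction calls (529 without treated control 3, 379 and 319 without treated controls 2 and 1). Untreated mutant 1 also moved the counts: without it 83 loci (26 named) were called, and 25 named without untreated mutant 2. By construction, fewer libraries make separate groups commoner. Same-numbered treated and untreated libraries did not deviate together (correlations of -0.03, -0.04 and -0.05). With so few libraries per group this cannot tell whether they were paired, and the labels do not say. A replicate block gave 100 calls and 32 named calls.

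Of 638 alternative values for single named genes, 86 lost and 7 gained the call and none turned sign past it. The 638 include genes not called in the main fit, which had no call to lose. Causes were not tested. At 2.47 to 3.41 M fragments, values under about 2 rest on 1 or a few fragments.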

Other observations

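The most abundant locus of the mutant libraries, paired with E030025P04Rik only as an overlap on the opposite strand, took 19.1%, 21.7% and 20.0% of the total in treated mutants 1 to 3 and 20.2% and 18.9% in untreated mutants 1 and 2, but 2.89% in untreated mutant 3. It was listed at 0 in all 6 control libraries. A locus that overlaps Tbc1d23 took 7.15% to 9.24% in 5 mutant libraries and 5.30% in untreated mutant 3, and among the controls it was above 0 in treated control 2 alone. Which transcripts these loci hold is not given by the pairing.

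Other called genes, chosen after their values were seen, were the following. Beside Sat1, Azin1, which encodes an inhibitor of the polyamine-regulating antizyme, was at 5.92, 6.08 and 5.50 in treated and 6.94, 7.01 and 7.23 in untreated mutants (-1.23). Beside Slc31a2, Atox1, a copper chaperone, was at 3.57, 4.66 and 4.41 against 5.81, 5.79 and 5.44 (-1.47). Vps29, a subunit of the endosomal retromer, was at 5.79, 5.63 and 5.54 against 7.35, 6.94 and 7.15 (-1.49). The limma adjusted p of these genes was not under 0.05, as for every locus.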
